A study of Mus musculus with 96 samples.

Results

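The liver miRNA miR-122 was found at 216 counts per 1000000 mature counts (CPM) in the median endothelial library of the mouse heart and at 1.18 CPM in the median cardiomyocyte library. It is one of 4 mature miRNAs best known from liver and gut that were followed across the cell types: mmu-miR-122-5p, mmu-miR-122b-3p, mmu-miR-192-5p and mmu-miR-194-5p. They were picked by name from the 1978 mature miRNAs in the small RNA tables, of which 1561 were counted in 1 library or more. The choice drew on measured values: these miRNAs of other organs had been seen in cardiac isolates, and the miR-122 names had been seen to differ strongly between endothelial cells at 28 days and uninjured hearts. Levels across cell types and the endothelial difference at 28 days are therefore given as a description with no test. Tests of the other endothelial days share the uninjured libraries of that difference, so their p-values are not free of the choice.

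The hearts came from male C57Bl/6J mice aged 12 to 14 weeks. Infarction was made by permanent ligation of the left anterior descending artery, and hearts were taken 1, 3, 7, 14 or 28 days later (D1 to D28), while D0 hearts came from mice without surgery. Hearts were digested with collagenase, and the digestion was stopped with foetal calf serum. Cardiomyocytes (CMs) were spun down, hematopoietic cells (HCs) were bound by anti-CD45 beads, endothelial cells (ECs) by anti-CD144 beads from what flowed through, and fibroblasts (FBs) were the cells that attached to a dish. Each library held RNA pooled from 3 mice, or from fewer where a sample was missing, and 4 libraries were made for each of the 24 combinations of cell type and day, 96 in all. Input RNA was 500 ng with 14 PCR cycles for CMs, 50 ng with 16 cycles for ECs and 150 ng with 15 cycles for HCs and FBs. Libraries were prepared in batches by cell type, so preparation and cell type cannot be told apart. By the study's methods the cell types of a day were isolated from the same mice, so libraries of different cell types are not independent, and the labels do not say which pools share mice. P-values measure only the spread between these pools.

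MiR-122 is the most abundant miRNA of the hepatocyte, where it supports lipid metabolism and liver identity, and it is released into the blood when liver cells are damaged. MiR-192 and miR-194 are made together from a pair of gene clusters, one holding Mir192 and Mir194-2 and the other Mir215 and Mir194-1, and they are abundant in intestine, liver and kidney. MiR-192 and its close relative miR-215 are p53-responsive and slow the cell cycle, and miR-194 accompanies epithelial differentiation of the gut and liver. In pooled bulk RNA, fewer cells of a type and less RNA per cell cannot be told apart.

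The mature sequences of the gut and liver clusters are shown because they decide which counts can be separated. Capitals mark the seed, bases 2 to 8, which directs target pairing. They are taken from RefSeq on GRCm38.p6.
miR-192-5p: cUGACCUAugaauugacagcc
miR-215-5p: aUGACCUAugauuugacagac
miR-194-5p: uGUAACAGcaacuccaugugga
MiR-192-5p and miR-215-5p shared the seed UGACCUA, and no other name among the 1679 mature names searched carried it. Over 21 bases counted from 1 at the 5′ end they differed at 3 positions, C1A, A12U and C20A from miR-192-5p to miR-215-5p. The seed of miR-194-5p, GUAACAG, occurred in 1 name only, and both Mir194 genes give the same mature sequence, so a miR-194-5p count does not show which cluster it came from. On GRCm38, Mir194-2 lies at chr19:6264643-6264728 and Mir192 at chr19:6264844-6264932, both on the plus strand with 115 bases between them and outside any annotated gene, with Atg2a as the nearest coding gene. Mir194-1 lies at chr1:185313319-185313385 and Mir215 at chr1:185313581-185313692, on the plus strand with 195 bases between them. Both lie within introns of Iars2, a gene of the minus strand, and within the plus-strand gene 2010103J01Rik, an exon of which overlaps Mir215. The Mir122b gene, 59 bases long, lies wholly inside the 66 bases of Mir122.

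Counts on mature miRNAs summed to between 3327351 and 24279105 in CM libraries, 525651 and 29037628 in EC libraries, 2217588 and 65588543 in FB libraries, and 18286 and 29504666 in HC libraries. The library with 18286 counts, HC D0 replicate 3, stood apart. With 3 counts taken as the limit of a count of 0, a miRNA at 0 counts there could have been present at up to 164 CPM. The share of reads with no match to a mature miRNA ran from 25.6% to 83.0%. The isolates carried the markers of their labels. MiR-1a-3p of cardiac muscle had a median of 514966 CPM in CMs, miR-126a-3p of endothelium 202797 CPM in ECs, miR-199a-3p of fibroblasts 46036 CPM in FBs and miR-142a-3p of white blood cells 6880 CPM in HCs. They also carried markers of each other: miR-1a-3p stood at 73313 CPM in ECs and 50277 CPM in HCs, and miR-150-5p of lymphocytes at 2354 CPM in ECs against 2290 CPM in HCs. The other hematopoietic markers were far lower in ECs. Their medians were 11.9 CPM against 6880 CPM in HCs for miR-142a-3p, 2.16 against 2208 CPM for miR-142a-5p and 2.32 against 1317 CPM for miR-223-3p.

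MiR-122-5p, the guide strand of the liver miRNA, separated the 4 cell types into a high pair and a low pair. Its median over 24 libraries was 216 CPM in ECs, with a range of 40.8 to 2419 CPM, and 87.3 CPM in FBs, with a range of 46.1 to 243 CPM. In HCs the median was 2.15 CPM with a highest value of 6.43 CPM, and in CMs it was 1.18 CPM with a range of 0.409 to 2.08 CPM. Every FB library lay above every HC library, and the ratio of their medians was 40.6. ECs and FBs overlapped, with 11 EC libraries above all FB libraries and a ratio of medians of 2.47. HCs and CMs overlapped too, with 13 HC libraries above all CM libraries and a ratio of 1.82. The gap between the pairs was present in uninjured hearts: at D0 the EC to CM ratio of medians was 221 and the FB to HC ratio 53.8. On no day did the range of ECs or FBs reach that of CMs or HCs, setting aside HC D0 replicate 3, whose 0 counts allowed up to 164 CPM. Ranked by mean CPM, miR-122-5p was number 81 of 1182 detected miRNAs in ECs, 156 of 1336 in FBs, 371 of 1214 in CMs and 427 of 1435 in HCs. The counts were small in the low pair, 3 to 34 per CM library and 352 in all, against 36354 over the EC libraries and 44019 over the FB libraries.

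**Figure D1:**
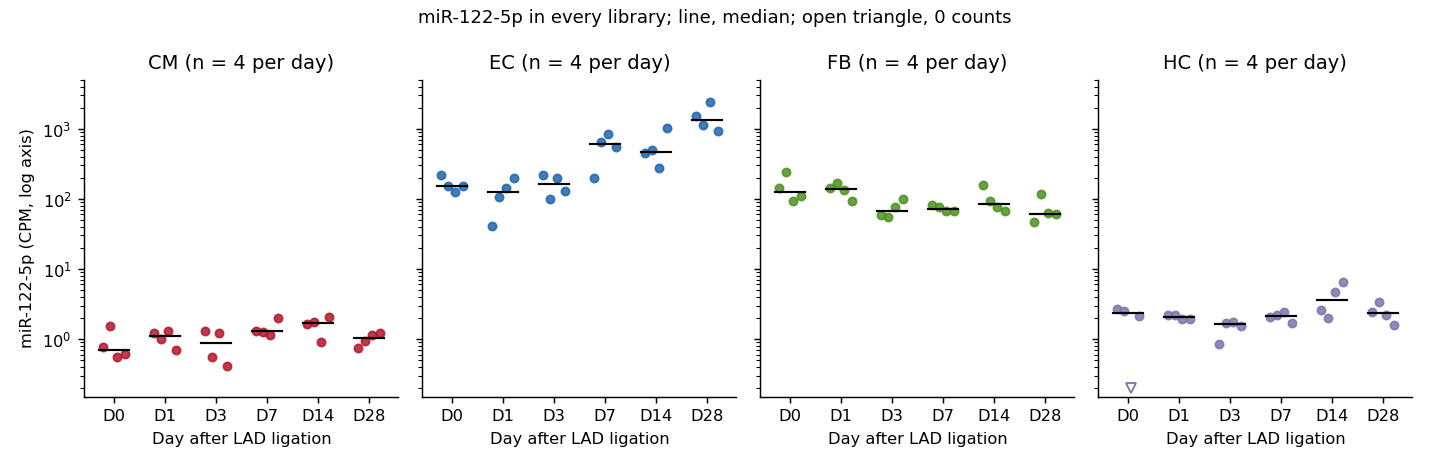
MiR-122-5p in each of the 96 libraries, in CPM on a log axis, by cell type and day, with 1 point per library. The EC and FB points lie between 40.8 and 2419 CPM and the CM and HC points at or below 6.43 CPM, with 1 HC D0 library of 18286 counts at 0.

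MiR-122b-3p, an arm of the overlapping Mir122b hairpin, followed miR-122-5p almost count for count where miR-122 was abundant. In ECs it had 35916 counts, 98.8% of those of miR-122-5p, and in FBs 43021 counts, or 97.7%. In CMs and HCs the share was lower, at 60.8% (214 of 352 counts) and 58.7% (462 of 787 counts). Only 1 of 96 libraries had more miR-122b-3p than miR-122-5p. After the group means were subtracted, the log2(CPM + 1) values of both names correlated with r = 1.00 over the 24 libraries of ECs and of FBs, 0.894 in HCs and 0.808 in CMs. Where the counts are shared to this degree the names are not separate measurements, and they are reported together from here on.

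The other arms of the same hairpins did not share that pattern. MiR-122-3p and miR-122b-5p had 18 and 42 counts over all EC libraries, 0.0495% and 0.116% of the miR-122-5p counts, and 17 and 24 counts over all FB libraries. In CMs they had 141 and 421 counts, 40.1% and 120% of the 352 counts of miR-122-5p. In HCs they had 52 and 244 counts, 6.61% and 31.0% of miR-122-5p. In CPM terms the difference between cell types was therefore a difference in the guide strand, with few counts of the other arms in any of them.

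Counts in the hairpin tables gave a second view. They were taken to come from reads left over after matching to mature miRNAs, so they do not measure precursor RNA. The mir-122 hairpin, as counted in the separate hairpin tables, had a median level, scaled to the mature total like CPM, of 2.35 in ECs, 2.03 in FBs, 2.06 in CMs and 1.54 in HCs, close to equal in the 4 cell types. Set against mature miR-122 counts, that came to 0.00927 hairpin counts per mature count in ECs and 0.0221 in FBs, but to 1.23 in CMs and 0.759 in HCs. Of 326 hairpins with at least 100 mature counts in ECs, 7 had a lower ratio than mir-122, and the median over hairpins was 0.383. In FBs 24 of 413 hairpins were lower, in CMs 231 of 334 and in HCs 269 of 442. The mir-192 hairpin showed no such split, with 1.25 hairpin counts per mature count in ECs, 0.697 in FBs, 1.17 in HCs and 1.01 in CMs. Within ECs the mir-122 ratio was 0.0202 at D0 and 0.00421 at D28, where 34 hairpin counts stood beside 8076 mature counts. The hairpin tables hold 1.17 to 2.40 alignments per read behind them, so these ratios compare hairpins and cell types and are not yields.

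**Figure D2:**
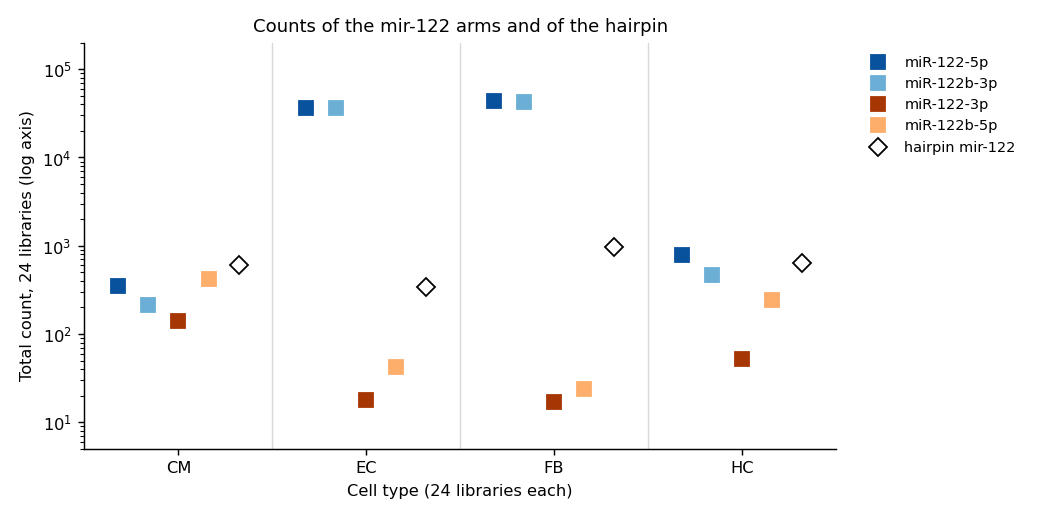
Total counts over the 24 libraries of each cell type, on a log axis, of the 4 mature arms of the Mir122 and Mir122b hairpins (squares) and of the mir-122 hairpin (diamonds). MiR-122-5p and miR-122b-3p nearly coincide in ECs and FBs, at 98.8% and 97.7%, while the other arms stay at 42 counts or fewer there and reach 421 counts in CMs.

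Over the days, miR-122-5p rose in ECs. The D0 libraries had 216, 153, 125 and 151 CPM. At D1 the values were 40.8, 105, 145 and 196 CPM, and at D3 they were 215, 98.7, 195 and 128 CPM. Both days overlapped D0, and neither change passed the test (quasi-likelihood test of edgeR, with p adjusted by Benjamini-Hochberg over 421 miRNAs, adjusted p = 0.993 and 0.974). At D1 the background was 0%: edgeR called 0 of 421 miRNAs, with 17 at an unadjusted p under 0.05, and DESeq2 called 5. At D3 the background was 17.6%. The D7 libraries had 200, 655, 828 and 556 CPM, and the D14 libraries 445, 491, 271 and 1035 CPM. At D7 the first library lay within the D0 range and the other 3 above it, and at D14 all 4 lay above D0. The log2 fold change was 1.40 (SE 0.38, edgeR adjusted p = 0.0061) at D7 and 1.55 (SE 0.38, edgeR adjusted p = 0.00619) at D14. Both tests share the D0 libraries and the fit with the D28 difference, which entered the choice, so their p-values are not free of it. MiR-122b-3p moved by 1.42 and 1.56 (edgeR adjusted p = 0.00579 and 0.00614). On each day both miR-122 names were called, which is 1 of 3 separate measurements among the 4 members, against a background of 22.6% of tested miRNAs at D7 and 14.5% at D14.

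The D28 libraries of ECs had 1522, 1129, 2419 and 941 CPM, the 3 highest values of the series among them, against 125 to 216 CPM at D0. The fitted log2 difference was 3.20 for miR-122-5p and 3.22 for miR-122b-3p, given as a description because it entered the choice of the miRNAs. With the share of reads that matched no mature miRNA as a covariate it was 2.36 and 2.38. These libraries were shallow, with 525651, 1829814, 636084 and 3902765 mature counts, yet the values rested on 800, 2065, 1539 and 3672 counts of miR-122-5p. For the first of them the 95% Wilson interval was 1420 to 1631 CPM, which covers counting error only.

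The unmatched share of reads moved with miR-122 in ECs. It was 48.5% to 67.3% at D0, 54.6% to 71.5% at D7, 50.6% to 76.6% at D14 and 66.0% to 77.5% at D28. The D7 library with 200 CPM and the D14 library with 271 CPM had the lowest shares of their days, 54.6% and 50.6%, and the D14 library with 1035 CPM had the highest, 76.6%. Over the 24 EC libraries log2(CPM + 1) of miR-122-5p had r = 0.839 and Spearman's rho = 0.763 with the unmatched share, a description, because the D28 values are among them. Over the 20 EC libraries from D0 to D14 r was 0.768 (permutation p = 9e-05, adjusted p = 0.00108 over 12 relations) and rho 0.659 (permutation p = 0.0021, adjusted p = 0.0126), and r was 0.680 without the 2 libraries farthest in the share. Within days, after each day's mean was subtracted, r was 0.699 (permutation p = 0.00446), which did not pass over the 12 relations (adjusted p = 0.0535). Of the other 11 relations from D0 to D14, 2 passed by Pearson's r, those of miR-194-5p in CMs and HCs (r = 0.563 and 0.575, permutation adjusted p = 0.0374 each). By Spearman's rho 4 passed, the same pair, miR-122-5p in HCs (rho = -0.618, permutation adjusted p = 0.0178) and miR-192-5p in ECs (rho = -0.528, permutation adjusted p = 0.0423), and none passed within days. In FBs, the other cell type with much miR-122, r was -0.129 (permutation p = 0.586). These relations were looked for after the values had been seen. CPM and the unmatched share both depend on the mature total of the library, so they are not independent measures. Apart from those within days, the permutations also shuffled libraries across days. With the share as a covariate in the EC fit, the log2 fold change of miR-122-5p was 0.97 (edgeR adjusted p = 0.0382) at D7 and 1.01 (edgeR adjusted p = 0.0571) at D14, so the D14 call was lost. Scaled to all reads, matched or not, instead of mature counts, miR-122-5p ranged from 50.01 to 96.2 at D0, 90.6 to 302 at D7, 134 to 242 at D14 and 255 to 545 at D28. On that scale D14 and D28 still did not overlap D0.

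Markers of other cells moved in ECs too. The summed level of 3 fibroblast markers was 2016 to 2845 CPM at D0, 6872 to 11141 CPM at D7, 4120 to 9608 CPM at D14 and 2195 to 7798 CPM at D28. The 2 endothelial markers themselves summed to 174749 to 215247 CPM at D0 and 103768 to 224231 CPM at D28. Those ranges overlapped, with medians of 200614 and 136462 CPM. The 4 red blood cell miRNAs summed to 1074 to 2035 CPM at D0 and 1909 to 4253 CPM at D28, and their D7, D14 and D28 ranges all overlapped D0. Over all EC libraries most of that sum was miR-486a-5p, with a mean of 1395 CPM against 232 CPM for miR-451a. The median of miR-486a-5p was highest in CMs, at 2033 CPM, where that of miR-451a was lowest, at 7.83 CPM. The sum is therefore not a measure of red blood cells alone. The 4 cardiomyocyte markers summed to 75957 to 134289 CPM at D0, 39746 to 80553 CPM at D7, 20924 to 53911 CPM at D14 and 21003 to 80702 CPM at D28. With TMM 4 of their 16 changes from D1 to D14 were called, all lower, against backgrounds of 0% to 22.6%. With library size alone 3 were called lower, beside 0 to 102 of 421 miRNAs on a day. This sum was mostly miR-1a-3p, with means of 72906 CPM in ECs, 2490 CPM in FBs and 61450 CPM in HCs. The next highest marker had means of 983, 17.1 and 506 CPM. At D7, D14 and D28 every FB library had less miR-122-5p than every EC library. The part of these cells, of blood and of the unmatched reads in the EC values was not tested.

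In FBs miR-122-5p went the other way. The D0 libraries had 141, 243, 93.9 and 108 CPM and the D1 libraries 141, 170, 132 and 92.4 CPM, which overlapped. At D1 edgeR called 0 of 4 members, with 0 at an unadjusted p under 0.05, and DESeq2 also called 0, against a background of 7.99%. At D3 the values were 59.3, 55.6, 77.0 and 99.0 CPM, and at D7 82.2, 76.7, 67.7 and 66.5 CPM. All D7 libraries lay below D0, and at D3 1 library lay within the D0 range. MiR-122-5p fell by 1.32 on the log2 scale at D3 (SE 0.31, edgeR adjusted p = 0.00147) and by 1.22 at D7 (SE 0.31, edgeR adjusted p = 0.00277), and miR-122b-3p by 1.33 and 1.22 (edgeR adjusted p = 0.00138 and 0.00271). With miR-192-5p at D3 and miR-194-5p at D7, 2 of 3 separate measurements among the 4 members were called on each day, against backgrounds of 43.0% and 45.6%. The D14 libraries had 158, 92.4, 75.8 and 67.5 CPM and the D28 libraries 46.1, 115, 62.5 and 60.0 CPM. Neither day passed the test, with log2 fold changes of -0.59 (edgeR adjusted p = 0.164) and -0.91 (edgeR adjusted p = 0.0837) for miR-122-5p and -0.58 and -0.91 for miR-122b-3p, and edgeR called 0 of 4 members against backgrounds of 24.7% and 6.75%. At D28 both miR-122 names had an unadjusted p under 0.05 and DESeq2 called both, while at D14 no member had such a p and DESeq2 called none. At D28 both names were also called lower with library size alone (edgeR adjusted p = 0.0457 each) and without the filter (edgeR adjusted p = 0.00997 and 0.00969). They were not called with the unmatched share as a covariate (edgeR adjusted p = 0.132 each). Without FB D14 replicate 1 miR-122-5p passed at D14, at -0.92, and without FB D28 replicate 2 it passed at D28, at -1.28. The summed cardiomyocyte markers in FBs were 2058 to 4863 CPM at D0, 2310 to 3313 CPM at D3 and 1128 to 2364 CPM at D7, and the summed hematopoietic markers 222 to 236 CPM, 177 to 333 CPM and 99.6 to 158 CPM. Their part in the change was not tested.

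In HCs miR-122-5p stayed at a few CPM. The D0 libraries had 2.65, 2.50, 0 and 2.14 CPM, the 0 being the library of 18286 counts. At D1 the values were 2.22, 2.19, 1.92 and 1.94 CPM, at D3 0.848, 1.70, 1.77 and 1.54 CPM, and at D7 2.07, 2.17, 2.46 and 1.68 CPM. The D3 libraries lay below the 3 deep D0 libraries. At D14 they were 2.60, 2.02, 4.62 and 6.43 CPM and at D28 2.45, 3.35, 2.20 and 1.59 CPM, both overlapping D0. At D3 miR-122-5p fell by 1.22 on the log2 scale (SE 0.34, edgeR adjusted p = 0.00353) and miR-122b-3p by 1.19 (edgeR adjusted p = 0.00533), and miR-122b-3p also fell by 0.90 at D1 (edgeR adjusted p = 0.0326) and by 1.06 at D7 (edgeR adjusted p = 0.00999). The number of members called was 1 of 4 at D1 against a background of 54.3%, 2 of 4 at D3 against 59.0% and 1 of 4 at D7 against 49.5%. At D14 it was 1 of 4, miR-192-5p, against 28.1%. At D28 edgeR called 0 of 4 against 24%, with miR-192-5p alone at an unadjusted p under 0.05, and DESeq2 called 0. Each of these 5 HC calls was lost under DESeq2, under library size as the only scaling and with the unmatched share as a covariate. With that covariate the log2 fold change was -1.31 for miR-122-5p at D3 and -0.42 for miR-192-5p at D14. For miR-122b-3p it was -0.41 at D1, -0.74 at D3 and -0.75 at D7. Single libraries ended calls of miR-122b-3p: its change was -0.89 at D1 without HC D0 replicate 1, -0.71 without HC D0 replicate 2, -0.86 without HC D1 replicate 3 and -0.84 without HC D1 replicate 4. At D3 it was -0.91 without HC D3 replicate 1 and -0.74 without HC D3 replicate 2, and at D7 it was -0.87 without HC D0 replicate 2. For miR-122-5p the D3 change was -0.81 without HC D3 replicate 1, and none of these passed. Summed markers of other cells in HCs were lower at D3 too. The 2 endothelial markers summed to 54905 to 91837 CPM at D0 and 14781 to 21541 CPM at D3. The 4 cardiomyocyte markers summed to 85776 to 132287 CPM and 38493 to 64736 CPM, and the 4 red blood cell miRNAs to 1189 to 2844 CPM and 434 to 709 CPM. Over all HC libraries most of the last sum was miR-486a-5p, with a mean of 622 CPM against 102 CPM for miR-451a. The part of these markers in the change was not tested.

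In CMs the direction of miR-122-5p depended on how libraries were scaled. The D0 libraries had 0.762, 1.56, 0.561 and 0.612 CPM, and the D7 and D14 libraries, the highest of the later days, had 1.31, 1.27, 1.16 and 2.00 CPM and 1.63, 1.74, 0.902 and 2.08 CPM. The values at D1 ranged from 0.703 to 1.31 CPM, at D3 from 0.409 to 1.29 CPM and at D28 from 0.737 to 1.21 CPM, and every day overlapped D0. With the trimmed mean of M values (TMM), edgeR's scaling for composition, miR-122-5p fell by 1.97, 1.61, 1.70 and 1.59 on the log2 scale at D3, D7, D14 and D28 (edgeR adjusted p = 0.00124, 0.00301, 0.0029 and 0.00578), but with library size alone they were -0.02, 0.71, 0.91 and 0.19, so the sign turned at D7, D14 and D28, and D14 was called higher. MiR-122b-3p fell by 2.03, 1.77, 2.10 and 1.64 with TMM (edgeR adjusted p = 0.00297, 0.00409, 0.00202 and 0.0117) and moved by -0.10, 0.57, 0.50 and 0.12 with library size alone. At D1 neither name passed, at -0.85 (edgeR adjusted p = 0.157) and -0.82 (edgeR adjusted p = 0.232). Without CM D0 replicate 2, the highest of its group, the D28 change was -1.10 for miR-122-5p and -1.02 for miR-122b-3p and the D7 change of miR-122b-3p was -1.13, none of them called. With the unmatched share as a covariate the D14 calls were lost, at -0.74 for miR-122-5p (edgeR adjusted p = 0.537) and -1.31 for miR-122b-3p (edgeR adjusted p = 0.379), and so was miR-122b-3p at D28, at -1.39 (edgeR adjusted p = 0.0636). Without the filter on low counts neither name passed at D28, at -1.29 (edgeR adjusted p = 0.0607) and -1.34 (edgeR adjusted p = 0.0881).

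The scaling factors of CM libraries moved with the dominant muscle miRNA. MiR-1a-3p stood at 602031 to 706983 CPM at D0 and at 291894 to 398591 CPM at D14, and TMM factors ran from 0.289 to 0.357 at D0 and from 1.91 to 2.04 at D14. The median log2 fold change over the 484 miRNAs tested was 0.20, 0.44, 0.35, 0.41 and 0.25 at D1, D3, D7, D14 and D28 with TMM and 1.42, 2.37, 2.67, 2.99 and 1.99 with library size alone. On both scales miR-122-5p and miR-192-5p lay below that median on every day. Over the 5 days 17 of 20 member changes were called in CMs with TMM, 5 higher and 12 lower, and 6 with library size alone, all higher. With TMM the number by day was 1 of 4 at D1 against a background of 25.0%, and 4 of 4 at D3, D7, D14 and D28 against 55.2%, 69.0%, 67.1% and 54.3%. With library size alone 298, 397, 419, 424 and 366 of the 484 miRNAs were called at D1, D3, D7, D14 and D28.

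MiR-192-5p, the guide strand of the first cluster, ranged from 207 to 1094 CPM over all 96 libraries. Its median was 620 CPM in HCs, 592 CPM in ECs, 453 CPM in FBs and 275 CPM in CMs. The ratio of medians was 1.05 from HCs to ECs, 1.31 from ECs to FBs and 1.65 from FBs to CMs, and each neighbouring pair overlapped. It ranked number 83 of 1214 in CMs, 77 of 1182 in ECs, 89 of 1336 in FBs and 95 of 1435 in HCs. In ECs it ranged from 513 to 794 CPM over all 6 days, and no change from D1 to D14 passed the test. At D28 the EC libraries had 561, 794, 654 and 529 CPM, as against 589, 566, 650 and 541 CPM at D0.

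In FBs miR-192-5p was 413, 412, 472 and 453 CPM at D0 and 327, 291, 307 and 472 CPM at D3. One D3 library lay at the D0 level and the other 3 below it, and miR-192-5p fell by 0.65 on the log2 scale (SE 0.18, edgeR adjusted p = 0.00523). That call was lost without FB D3 replicate 1 (-0.53, edgeR adjusted p = 0.0658) and without FB D3 replicate 2 (-0.46, edgeR adjusted p = 0.0954). It was also lost without the filter on low counts (-0.54, edgeR adjusted p = 0.0538) and with library size alone (-0.33, edgeR adjusted p = 0.143). At D1 it ranged from 349 to 709 CPM and at D28 from 400 to 452 CPM. At D7 and D14 it ranged from 518 to 587 CPM and from 508 to 524 CPM, above all D0 libraries in CPM, yet neither change passed (0.14 and 0.21, edgeR adjusted p = 0.565 and 0.423). In HCs it was 485, 639, 1094 and 581 CPM at D0 and 512, 622, 543 and 538 CPM at D14, with overlapping ranges, and the fall of 0.46 (SE 0.17, edgeR adjusted p = 0.0457) did not hold without the shallow D0 library, at -0.40. It was also lost without HC D0 replicate 2 (-0.41) or 4 (-0.46), HC D14 replicate 1 (-0.45), 2 (-0.50) or 3 (-0.45). The value of 1094 CPM in that library rested on 20 counts, with a 95% Wilson interval of 708 to 1689 CPM.

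In CMs miR-192-5p was 290, 302, 345 and 391 CPM at D0, 244, 244, 327 and 308 CPM at D7, and 207, 241, 286 and 236 CPM at D14. It ranged from 212 to 466 CPM at D1, 244 to 363 CPM at D3 and 220 to 339 CPM at D28. The D14 libraries all lay below D0 and the other days overlapped it. With TMM it fell by 2.08, 2.53, 3.06 and 1.95 on the log2 scale at D3, D7, D14 and D28 (edgeR adjusted p = 0.000227, 1.95e-05, 2.77e-06 and 0.000428), whereas with library size alone it moved by -0.19, -0.24, -0.45 and -0.35 and no day was called. At D1 the change was -0.93 (SE 0.40, edgeR adjusted p = 0.0842), and 0.01 with library size alone. Without CM D1 replicate 1 it was -1.30 and passed with TMM.

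MiR-194-5p, made from a gene beside Mir192 and from another beside Mir215, rose in CMs after infarction on either scale. The D0 libraries had 29.3, 9.70, 17.6 and 13.6 CPM. At D1 the values were 28.0, 35.6, 272 and 205 CPM, at D3 85.1, 138, 386 and 331 CPM, and at D7 278, 353, 302 and 256 CPM. At D1 1 library lay within the D0 range, and from D3 on all lay above it. At D14 the values were 305, 258, 344 and 365 CPM and at D28 67.2, 237, 268 and 230 CPM. The log2 fold changes with TMM were 1.42 (SE 0.43), 1.76, 1.80, 1.59 and 1.66 (SE 0.44 each) at D1, D3, D7, D14 and D28, with edgeR adjusted p = 0.0205, 0.00186, 0.000993, 0.00281 and 0.00279. With library size alone they were 2.94, 3.74, 4.08, 4.18 and 3.51, and all 5 stayed called, beside 298 to 424 of 484 miRNAs called on a day. The D1 call rested on single libraries: without CM D1 replicate 3 the change was 0.92 (edgeR adjusted p = 0.137), and it was also lost without CM D1 replicate 4 (1.28), CM D0 replicate 2 (1.29) or CM D0 replicate 4 (1.31). With the unmatched share as a covariate the D14 change was 1.64 (edgeR adjusted p = 0.132); that share was 29.0% to 42.0% at D0 and 48.8% to 83.0% at D14.

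**Figure D3:**
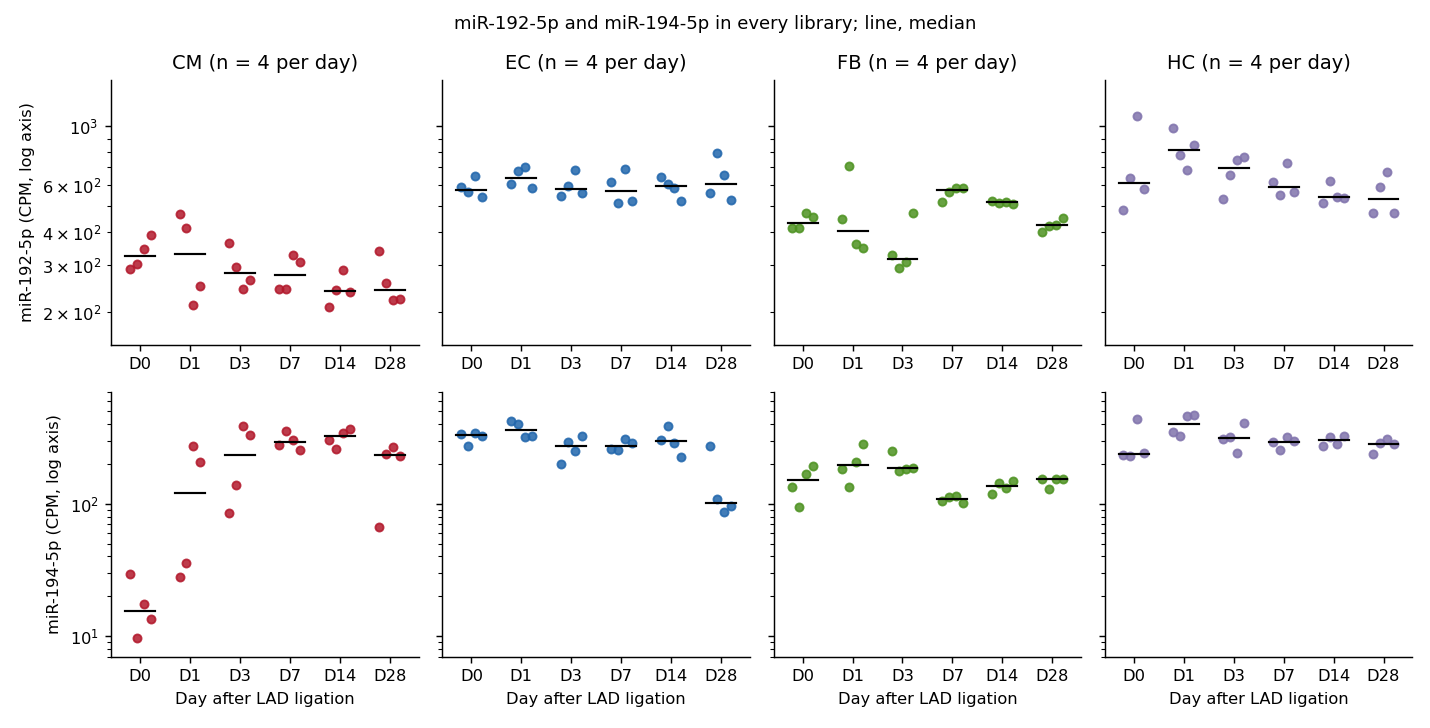
MiR-192-5p and miR-194-5p in each library, in CPM on a log axis, by cell type and day, with 1 point per library. MiR-192-5p stays between 207 and 1094 CPM throughout, while miR-194-5p starts at 9.70 to 29.3 CPM in the CM libraries of D0 and reaches 258 to 365 CPM at D14.

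A ratio within each library does not depend on the scaling. In CMs the count ratio of miR-194-5p to miR-192-5p was 0.0321 to 0.101 at D0, 0.0601 to 1.28 at D1, 0.234 to 1.59 at D3, 0.831 to 1.44 at D7, 1.07 to 1.55 at D14 and 0.198 to 1.22 at D28. From D3 on every library lay above every D0 library. The mean log2 ratio was higher than at D0 by 2.47, 3.80, 4.43, 4.74 and 3.82, with a two-sided exact permutation p = 0.0857 at D1 and 0.0286 on the later days, which is the smallest that 4 against 4 libraries allow (adjusted p = 0.0857 and 0.0357 over 5 days). This ratio was chosen after the scaling dependence had been seen, and it shows unequal change of both miRNAs, not which of them changed. In the other cell types the median ratio was 0.489 in ECs, 0.332 in FBs and 0.488 in HCs, so the CM libraries of D0 stood low. The highest ratio in any library was 0.701 in ECs, 0.809 in FBs and 0.669 in HCs. All CM libraries of D7 and D14 lay above these values. After group means were subtracted, miR-192-5p and miR-194-5p ran against each other in CMs (r = -0.847 over 24 libraries of log2(CPM + 1), a description, with the library total shared by both), while miR-192-5p and miR-215-5p ran together (r = 0.869).

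Low values of miR-194-5p in CMs went with low scaling factors on some days but not on all, and markers of other cells moved as well. D1 replicates 1 and 2 and D28 replicate 1 had TMM factors of 0.491, 0.543 and 0.670, and the others of those days had 1.04 to 1.31. D3 replicates 1 and 2, at 85.1 and 138 CPM, had factors of 1.08 and 1.15, against the 1.27 and 1.45 of the other D3 libraries. Summed fibroblast markers in CMs were 36.5 to 114 CPM at D0 and 1358 to 2188 CPM at D14, summed endothelial markers 4423 to 9789 CPM and 19277 to 27651 CPM, and summed hematopoietic markers 14.6 to 75.8 CPM and 151 to 182 CPM. The other isolates had more miR-194-5p than CMs at D0: medians over all days were 301 CPM in HCs, 291 CPM in ECs and 151 CPM in FBs. At 246 CPM the CM median over all days lay between ECs and FBs, at ratios of 1.18 and 1.63, and each neighbouring pair overlapped. The part of other cells in the CM values was not tested.

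In ECs miR-194-5p had 336, 272, 342 and 322 CPM at D0, ranged from 199 to 423 CPM from D1 to D14, and had no change that passed the test on those days. At D28 the values were 274, 109, 86.5 and 95.6 CPM, 3 of them below all D0 libraries, with a log2 difference of -1.20 given as a description. In FBs it was 133, 94.7, 167 and 193 CPM at D0 and 105, 113, 114 and 101 CPM at D7, within the D0 range, and it fell by 0.67 on the log2 scale (SE 0.21, edgeR adjusted p = 0.0121). That call was lost without FB D0 replicate 4 (-0.53, edgeR adjusted p = 0.0577) and with library size alone (-0.45, edgeR adjusted p = 0.0848). It was also lost without the filter (-0.56, edgeR adjusted p = 0.0568) and with the unmatched share as a covariate (-0.49, edgeR adjusted p = 0.112). On the other days it lay between 119 and 282 CPM and was not called. In HCs it was 235, 230, 437 and 240 CPM at D0 and between 239 and 464 CPM later, and no change passed edgeR's test. At D1, with 347, 326, 457 and 464 CPM, all 4 libraries lay above the 3 deep D0 libraries, and both DESeq2 and the fit with library size alone called it. The value of 437 CPM rested on 8 counts.

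**Figure D4:**
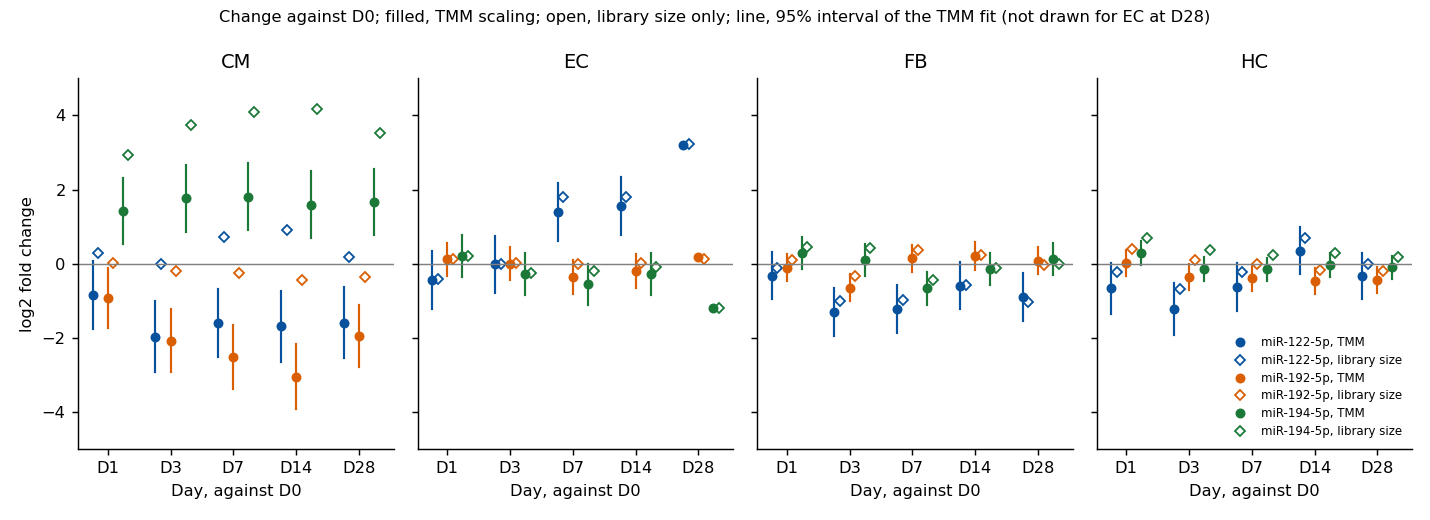
Log2 fold change against D0 of miR-122-5p, miR-192-5p and miR-194-5p by cell type and day, filled for TMM scaling, open for library size alone, with the 95% interval of the TMM fit as a line (not drawn for ECs at D28). In CMs miR-122-5p is negative with TMM and turns positive at D7, D14 and D28 with library size alone, miR-192-5p is called with TMM only, and miR-194-5p is positive on both.

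The changes differed between cell types. In a fit of 80 libraries from D0 to D14, the test of the 12 interaction terms of cell type and day gave an edgeR adjusted p = 8.66e-06 for miR-122-5p, 1.54e-06 for miR-122b-3p, 4.03e-11 for miR-192-5p and 4.6e-06 for miR-194-5p. All 4 members passed, against a background of 70.8% of the miRNAs tested. With library size as the only scaling miR-192-5p no longer passed (adjusted p = 0.0565). This fit treats libraries of different cell types as independent although they came from the same mice. It also holds the EC libraries of D0, which entered the choice of the miR-122 names. With same-numbered libraries of a day as 1 block across cell types, a pairing that the labels do not give, all 4 passed, with edgeR adjusted p from 2.11e-11 to 3.44e-05.

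The relatives of the members were given by a list. MiR-215-5p, which shares the seed of miR-192-5p, had a median of 17.99 CPM in CMs, 3.46 CPM in ECs, 2.08 CPM in FBs and 4.29 CPM in HCs, so the order of CMs and the others was not that of miR-192-5p. With TMM 4 of 5 changes passed in CMs, against backgrounds of 25.0% to 69.0% over the days, and 3 of 5 in HCs, against 24% to 59.0%, all lower, but with library size alone 0 passed in CMs and 1 in HCs. In FBs 2 of 5 were higher on either scale, at D7 (1.56, edgeR adjusted p = 0.00156, background 45.6%) and D14 (1.38, edgeR adjusted p = 0.00812, background 24.7%). In CMs its range was 12.9 to 17.9 CPM at D0 and 13.9 to 18.6 CPM at D14, which overlapped, although it fell by 2.42 on the log2 scale with TMM (edgeR adjusted p = 1.56e-05). MiR-192-5p was not called in FBs on those days.

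The 3p arms of the clusters can tell the genes apart where the 5p arm cannot. MiR-194-2-3p, from the Mir192 cluster, had a median of 7.35 CPM in HCs, 5.24 CPM in FBs, 2.25 CPM in ECs and 0.467 CPM in CMs. MiR-194-1-3p, from the Mir215 cluster, had medians of 0.388 CPM in CMs, 0.352 CPM in FBs, 0.0257 CPM in HCs and 0 CPM in ECs. In HCs miR-194-2-3p rose by a log2 fold change of 1.92 at D1 (SE 0.30, edgeR adjusted p = 8.96e-06), 1.66 at D3 (edgeR adjusted p = 3.76e-05), 1.03 at D7 (edgeR adjusted p = 0.0052) and 1.10 at D14 (edgeR adjusted p = 0.00678), while miR-194-5p itself was not called there on any day. In CMs miR-194-1-3p fell by 1.80 at D7 (edgeR adjusted p = 0.0154) and by 2.27 at D14 (edgeR adjusted p = 0.00756) with TMM, on 147 counts in all. In CPM its ranges overlapped, at 0.0708 to 0.459 CPM at D0, 0.145 to 0.950 CPM at D7 and 0 to 0.543 CPM at D14, and with library size alone the differences were 0.52 and 0.24, neither called. Of the 5 other arms, 3 were tested in CMs, 2 in HCs and 1 each in ECs and FBs. In CMs 0 of 15 changes were higher and 2 lower with TMM, but 10 higher and 0 lower with library size alone. In HCs 4 of 10 were higher and 3 lower with TMM, and edgeR called 0 of 4 in ECs and 0 of 5 in FBs. The backgrounds with TMM were 25.0% to 69.0% in CMs, 24% to 59.0% in HCs, 0% to 22.6% in ECs and 6.75% to 45.6% in FBs. With library size alone 298 to 424 of 484 miRNAs were called on a day in CMs.

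MiRNAs best known from other organs varied widely in level. MiR-802-5p, which like miR-122 is abundant in liver and is also found in pancreas, had at most 4 counts over the 24 libraries of any cell type, too few to be tested. The pancreatic miR-216a-5p and miR-216b-5p did not pass 1.19 CPM in any library and miR-217-5p did not pass 3.50 CPM. MiR-217-5p had its higher medians where miR-122-5p had, at 1.04 CPM in ECs and 0.363 CPM in FBs against 0.0830 CPM in CMs and 0 CPM in HCs. MiR-375-3p of pancreatic and gut endocrine cells had medians of 0.202 to 1.07 CPM and a highest value of 18.3 CPM in an HC library, and 3 of its 5 changes in CMs were called lower with TMM and none with library size alone. MiR-124-3p of neurons had at most 18 counts over the libraries of any cell type, whereas miR-9-5p, also abundant in brain, had medians of 44.7 to 68.1 CPM in every cell type. The epithelial miR-200 family was highest in HCs, for example miR-200c-3p at 86.8 CPM against 6.44 to 12.3 CPM elsewhere, and miR-203-3p had 212 to 248 CPM in ECs, FBs and HCs and 27.2 CPM in CMs.

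Counts of calls for these lists are read against the share of all miRNAs called on a day with TMM, 25.0% to 69.0% in CMs, 0% to 22.6% in ECs, 6.75% to 45.6% in FBs and 24% to 59.0% in HCs. With library size alone 298 to 424 of 484 were called in CMs and 238 to 390 of 608 in HCs. In FBs the number was 32 to 254 of 563, and in ECs 0 to 102 of 421 from D1 to D14. For the 6 epithelial miRNAs 21 of 30 changes were higher and 1 lower in FBs, and 19 and 0 with library size alone. In CMs 5 of 30 were higher and 2 lower with TMM but 28 higher and 0 lower with library size alone, and their summed level was 13.8 to 42.7 CPM at D0 and 74.2 to 129 CPM at D7. In ECs 7 of 24 were lower and 0 higher, and in HCs 1 of 30 was higher and 5 lower with TMM and 8 and 2 with library size alone. MiR-9-5p was called lower in 3 of 5 changes in CMs with TMM, yet it was 14.6 to 20.8 CPM at D0 and 52.1 to 66.3 CPM at D7, and all 5 changes were called higher with library size alone. It was called lower in 2 of 5 changes in FBs and 4 of 5 in HCs, and in 0 and 1 with library size alone. Of the 20 changes of red blood cell miRNAs in CMs, 12 were called higher and 5 lower with TMM and 17 higher and 0 lower with library size alone. They were called lower in 5 of 20 in FBs and 7 of 20 in HCs, and higher in 1 of 16 in ECs.

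Among libraries of one group, after group means were subtracted, the correlation of miR-122-5p with each of the 4 red blood cell miRNAs differed in sign between cell types. Over 24 libraries each, r with miR-451a was -0.0191 in ECs, 0.280 in FBs, -0.160 in CMs and 0.100 in HCs. With miR-486a-5p it was 0.542, 0.465, 0.127 and -0.296 in the same order, with miR-144-3p -0.0535, -0.234, -0.355 and 0.466, and with miR-144-5p -0.209, -0.0260, -0.232 and 0.490. With miR-194-5p it gave r = -0.722 in FBs and -0.233 in ECs, and with miR-192-5p 0.301 and -0.0422. These are descriptions over libraries that share the CPM total. Over the 24 group means of log2(CPM + 1), the profile nearest to miR-122-5p among 299 candidates with a mean of at least 10 CPM was that of miR-211-5p (r = 0.926), followed by miR-672-5p (0.914) and let-7b-3p (0.908). MiR-211-5p had medians of 316 CPM in ECs, 85.9 CPM in FBs, 33.0 CPM in HCs and 8.95 CPM in CMs. In ECs it was 255 to 310 CPM at D0 and 208 to 468 CPM at D28, overlapping ranges, unlike miR-122-5p. The nearest profiles to miR-192-5p were miR-10a-5p (0.933), miR-10b-5p (0.929) and miR-106b-3p (0.886), and to miR-194-5p miR-322-5p (0.890), miR-15a-5p (0.877) and miR-17-5p (0.865). Among the members, r was 0.387 for miR-122-5p and miR-192-5p, 0.0556 for miR-122-5p and miR-194-5p and 0.358 for miR-192-5p and miR-194-5p.

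Library depth was related to the members in HCs when levels were given in CPM. Over 24 HC libraries log2(CPM + 1) of miR-192-5p fell with the log2 of the mature total, with r = -0.657 (permutation p = 0.00026, adjusted p = 0.00312 over 12 relations) and rho = -0.564 (permutation p = 0.00494, adjusted p = 0.0296). For miR-194-5p r was -0.569 (permutation p = 0.00105, adjusted p = 0.0063) and rho -0.639 (permutation p = 0.00109, adjusted p = 0.0131). For miR-122-5p r was 0.695 (permutation p = 0.00363, adjusted p = 0.0145) and rho 0.435 (permutation p = 0.0349, adjusted p = 0.14). Without the 2 libraries farthest in depth, HC D0 replicate 3 among them, r was -0.487, -0.538 and 0.218, so the last rested on those libraries. Within days none of the 3 passed (permutation p = 0.0904, 0.0971 and 0.138). Levels were also scaled to all reads, with depth still taken as the mature total. In HCs miR-192-5p and miR-194-5p then no longer passed (r = -0.315 and -0.235, permutation adjusted p = 0.2185 and 0.333), while miR-122-5p did (r = 0.617, permutation adjusted p = 0.0161). In CMs miR-192-5p passed (r = 0.812, permutation adjusted p = 0.00036, and 0.599 without the 2 farthest libraries, both of D14). The matched share of reads enters that scaled level and the mature total alike, so these are not independent measures. In ECs miR-122-5p had r = -0.407 with depth over 24 libraries, a description in which the shallow D28 libraries carry the 3 highest values. Over the 20 EC libraries from D0 to D14 r was -0.110 (permutation p = 0.643) and rho -0.0526 (permutation p = 0.825), and within days r was -0.440 (permutation p = 0.0464, adjusted p = 0.294). In CMs and FBs none of the 6 relations of CPM with depth passed (adjusted p of 0.153 or above).

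**Figure D5:**
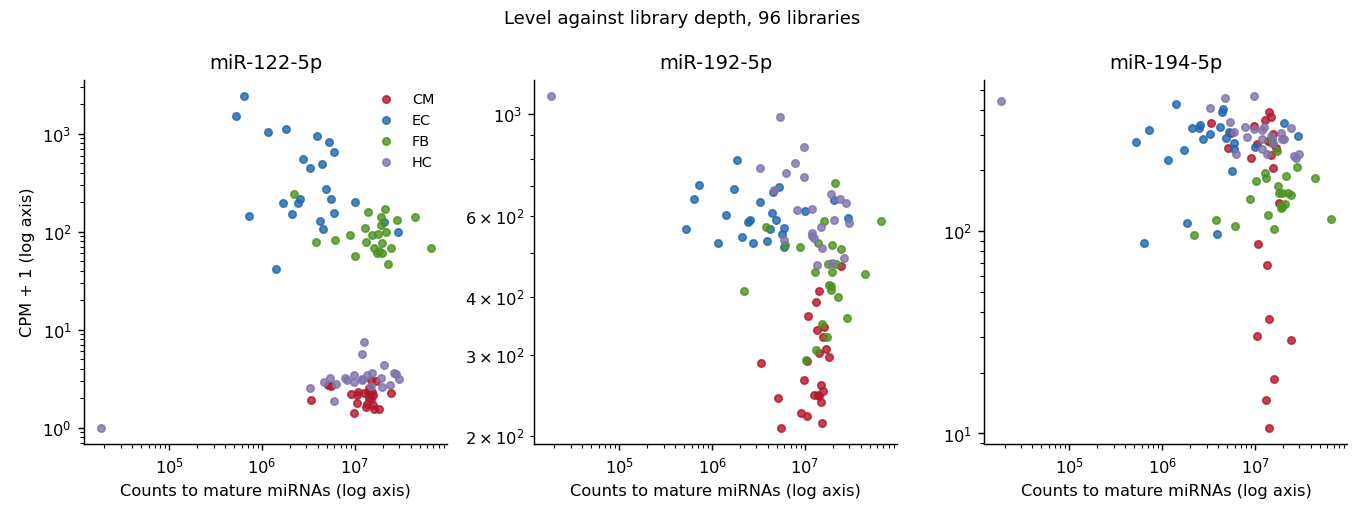
CPM + 1 of miR-122-5p, miR-192-5p and miR-194-5p against the mature count total of each library, both on log axes, with 1 point per library coloured by cell type. The isolated HC point is the library of 18286 counts, and in ECs the D28 libraries, 525651 to 3902765 counts deep, carry the 3 highest values of miR-122-5p.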

How the data were processed

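Small RNA was sequenced from 96 libraries of 4 cell types and 6 time points. Per the labels and the study's methods, reads were trimmed with Trim Galore, reads under 18 nt were removed, and the nf-core small RNA pipeline aligned them to mature and hairpin miRNAs with tools that include Bowtie2 and SAMtools, with mm10 named as the build. The deposited files hold the authors' raw counts per mature or hairpin miRNA. How reads that fit several names were split, and whether strand was used, is not given in the sources used here, and reads counted under both miR-122-5p and miR-122b-3p would make their counts alike.

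The line for reads without a match, 25.6% to 83.0% of a library, was kept out of totals and tests. Values were scaled to CPM, counts per 1000000 mature counts, so a miRNA's CPM also moves when a dominant miRNA moves. The totals of 18286 to 65588543 set the precision, and intervals and limits cover counting error only. Changes against D0 were tested with edgeR 4.0.16 in R 4.3.3, with 24 libraries of a cell type in 1 fit, TMM, its filter on low counts, the quasi-likelihood test and Benjamini-Hochberg adjustment over all miRNAs tested (484 in CMs, 421 in ECs, 563 in FBs, 608 in HCs) at 0.05. The edgeR test and the permutation test were tried on simulated data. Log values used CPM plus 1. Correlations with p-values were two-sided permutation tests with 100000 resamples (scipy 1.17.1).

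Alternatives were DESeq2 1.42.0, library size alone, no filter, a replicate block, 2 days alone and leaving out libraries. The study left out 1 library of ECs at D28, of FBs at D0 and of HCs at D0; all 96 were used here, with removal as an alternative. Beside these, the unmatched share as an x axis or covariate and the ratio of miR-194-5p to miR-192-5p were added after seeing the data, as were these relations without D28 and a replicate block across cell types. The members and lists were chosen with earlier results of these data known. Named were the 4 members, the other arms and the miR-215 relative, lists of epithelial, pancreatic, liver, brain and red blood cell miRNAs, cell type markers, and the 3 miRNAs most correlated with each member over group means.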

Additional observations from a re-analysis of the deposited data

Results flagged for a closer look

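MiR-194-5p had 1 library far from the other 3 in 4 groups, out of 96 groups of 4 libraries examined over the 4 miRNAs, where chance flags about 1 in 20 groups. In ECs at D28, replicate 1 had 274 CPM and the others 86.5 to 109 CPM. In FBs at D3, replicate 1 had 249 CPM and the others 177 to 186 CPM. In FBs at D28, replicate 2 had 129 CPM, below the 153 to 154 CPM of the others. In HCs at D0, replicate 3 had 437.5 CPM and the others 230 to 240 CPM, and that library held 18286 counts, 8 of them miR-194-5p. None of the other 3 miRNAs had a group with a library that far from the rest. The changes from D1 to D14 differed between cell types by the edgeR interaction test for miR-122-5p (adjusted p = 8.66e-06), miR-122b-3p (adjusted p = 1.54e-06), miR-192-5p (adjusted p = 4.03e-11) and miR-194-5p (adjusted p = 4.6e-06), beside 70.8% of all miRNAs tested. The causes were not tested.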

How the results depend on the processing

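With library size as the only scaling, 6 of 20 member changes were called in CMs instead of 17, and 1 of 20 in HCs instead of 5, which was miR-194-5p at D1. DESeq2 also called 1 in HCs. With library size alone 298 to 424 of 484 miRNAs were called on a day in CMs and 238 to 390 of 608 in HCs. With the unmatched share as a covariate, chosen after seeing the data, 2 of 16 were called in ECs instead of 4 and 0 of 20 in HCs (edgeR). Leaving out 1 library at a time gave 2 to 7 calls in HCs, 2 without HC D0 replicate 2 and 3 without HC D3 replicate 1, while FBs gave 5 to 8, ECs 4 in every fit and CMs 13 to 18. In CMs with library size alone the log2 fold change turned positive for miR-122-5p at D1 (0.28), D7 (0.71), D14 (0.91) and D28 (0.19), for miR-122b-3p at D1 (0.35), D7 (0.57), D14 (0.50) and D28 (0.12), and for miR-192-5p at D1 (0.014). In ECs at D28 the small difference of miR-192-5p was 0.53 with the unmatched share as a covariate, turned from 0.18 to -0.0725 without the filter and -0.0773 with the 2 days alone, and ranged from -0.0781 (without EC D28 replicate 2) to 0.27 when 1 library was left out. With that covariate the D28 differences of miR-122-5p and miR-122b-3p in ECs were 2.36 and 2.38. The interaction of miR-192-5p had adjusted p = 0.0565 with library size alone. With levels scaled to all reads and depth still the mature total, the correlation turned to 0.422 for miR-122-5p in CMs and to 0.305 for miR-192-5p in ECs. It no longer passed for miR-192-5p (-0.315) and miR-194-5p (-0.235) in HCs, and it passed for miR-192-5p in CMs (0.812). The matched share of reads enters both measures. In CPM, without the 2 libraries farthest in depth, the correlation turned to 0.0863 for miR-122-5p in FBs. Where no value above shows it, the cause was not tested. Mean CPM moved by more than 1 SD in 79 of 96 groups with all reads as the total and in 58 of 96 with TMM over all libraries. The larger total of all reads lowers every mean by its unit alone, so the first count does not measure stability. Leaving out 1 of 4 libraries cannot move a mean by more than 1 SD, so that none of the 384 such means did shows nothing.

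Replicate numbers did not pair the libraries of a cell type across days, which came from different mice: deviations of same-numbered libraries correlated with a mean of -0.00586 in FBs, 0.00781 in HCs, 0.012 in ECs and 0.0265 in CMs. Across cell types of a day, which share mice, same-numbered libraries correlated with r from -0.41 to 0.425 over the members, and a block across cell types ended none of the 4 interaction calls. With the replicate block 5 member changes were called in HCs, 6 in FBs, 4 in ECs and 18 in CMs, and the 1 difference was miR-192-5p in CMs at D1, at -1.11. Depth limited miR-122-5p in CMs to 3 to 34 counts per library, and the 0 counts in HC D0 replicate 3 allowed up to 164 CPM at the limit of 3 counts.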
